A study of Mus musculus with 6 samples.

Results

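The 10 pluripotency factors Pou5f1, Nanog, Sox2, Klf4, Myc, Esrrb, Zfp42, Sall4, Utf1 and Tdgf1 were followed through the reprogramming of mouse skin cells by CRISPR activation. They were chosen by name, as the rows of the count table whose Ensembl identifier carries one of these symbols, and all 10 were found among the 49315 genes listed. CRISPR activation brings transcriptional activators to a gene's own promoter with a Cas9 that does not cut, here in the form called SAM. Wild-type cells of tail-tip skin gave 6 RNA libraries in 3 groups of 2. Fibroblasts, the day 0 group, had received lentiviral vectors that served as the negative control. Early cells were collected on day 7 after CRISPR activation vectors, and their second library is described as partially reprogrammed. Late cells were collected on day 22 after the same kind of vectors and isolation of colonies, and are described as induced cardiac progenitors. The sources used here do not give the genes that the guides targeted.

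Pluripotent cells of the early embryo, and embryonic stem cells derived from them, can form every tissue of the body. Their state is held by a circuit of transcription factors in which POU5F1 (OCT4), SOX2 and NANOG bind many of the same enhancers, their own included, with KLF4, ESRRB, SALL4 and ZFP42 (REX1) attached to it. Fibroblasts given Pou5f1, Sox2, Klf4 and Myc from vectors can become induced pluripotent stem cells. Pou5f1, Nanog and Zfp42 are silent in most body cells and serve as signs of that state, while Klf4, Myc and Sox2 also work in other tissues, skin among them.

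The factors fell into separate patterns. Pou5f1, Zfp42, Sall4, Utf1 and Tdgf1 were counted almost only in late cells, at 0 to 2 reads in each fibroblast and early library. Klf4, Myc and Sox2 were above the detection limit of 3 counts in all 6 libraries. Nanog stayed near the detection limit throughout, and Esrrb stood out in 1 late library. Taken per kilobase of exon, the order in late cells ran from Klf4 (mean 44.9 CPM per kb, where CPM are read counts scaled to a common library size and kb is exon length) through Myc (17.1) and Sox2 (2.66) to Utf1 (1.5), Esrrb (1.30), Pou5f1 (0.912), Sall4 (0.874), Zfp42 (0.314), Tdgf1 (0.212) and Nanog (0.0839). From Sox2 downwards the ranges of the late libraries overlap between each gene and the next. Within each library Sall4 was still above Zfp42, at 1.26 and 0.486 against 0.509 and 0.119 CPM per kb. Sox2 over Utf1 and Zfp42 over Tdgf1 also kept their order in both late libraries, while the other neighbours did not. Among genes farther apart, both late libraries had more Sox2 and more Utf1 than Zfp42, Tdgf1 or Nanog. Both also had more Pou5f1 and Sall4 than Tdgf1 or Nanog. In fibroblasts the mean level was 36.5 CPM per kb for Klf4, 23.8 for Sox2 and 8.35 for Myc, and the next factor, Nanog, averaged 0.0804. In early cells it was 51.6 for Klf4, 17.8 for Myc and 1.24 for Sox2. In each of these 2 groups the ranges of the 3 leading factors did not overlap, with Klf4 and Sox2 nearly level in fibroblast replicate 1 (35.3 and 35.1 CPM per kb).

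**Figure D1:**
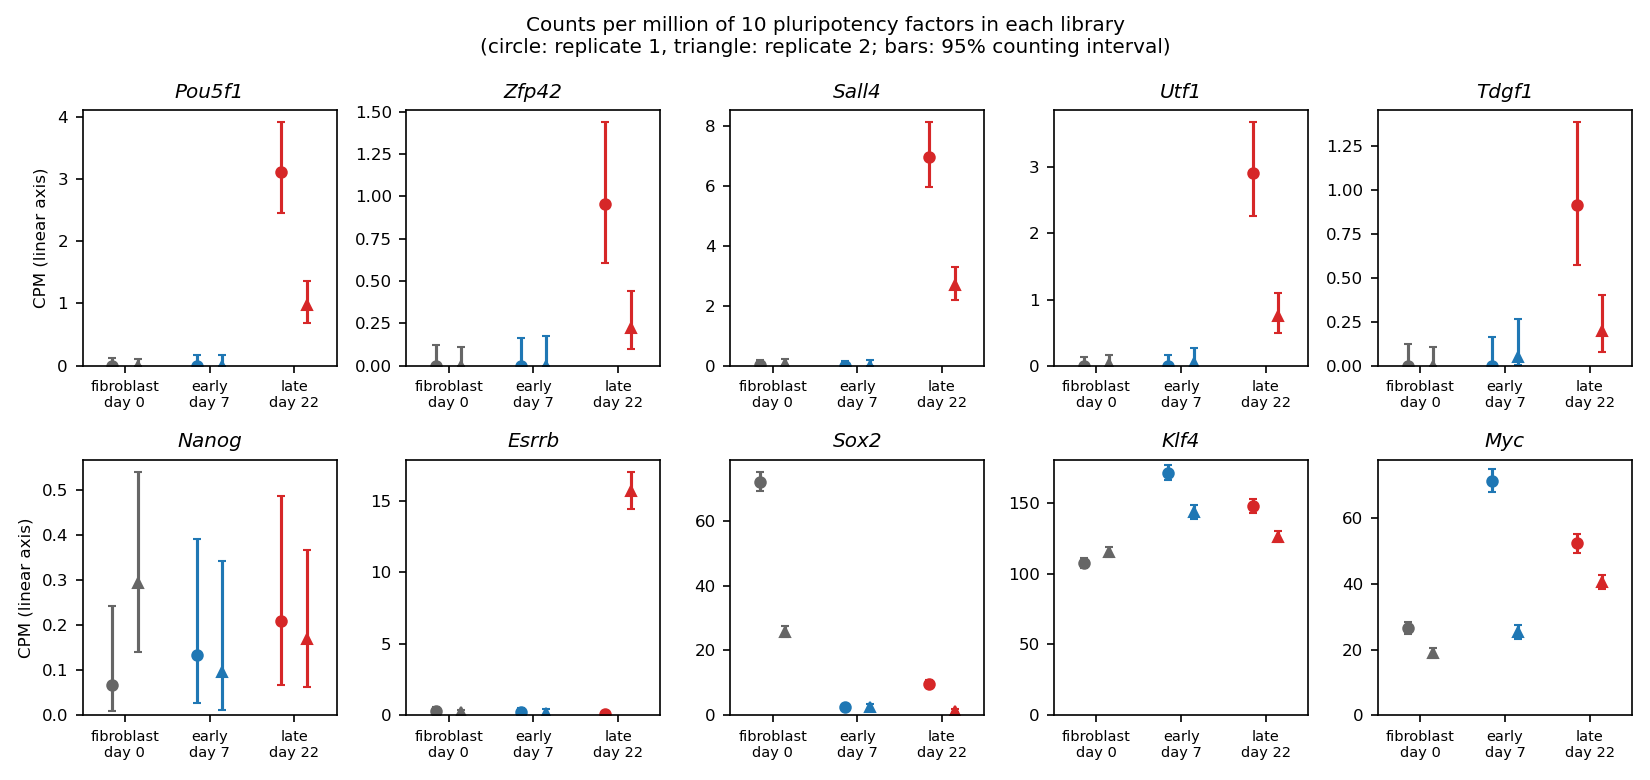
Scaled read counts (CPM, linear axes that differ between panels) of the 10 factors in each of the 6 libraries, with circles for replicate 1, triangles for replicate 2 and bars for the 95% counting interval. Pou5f1, Zfp42, Sall4, Utf1 and Tdgf1 stand clear of 0 in both late libraries alone, higher in replicate 1, whereas Esrrb stands clear in late replicate 2 alone at 15.7 CPM.

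The promoters of the factors counted almost only in late cells are shown here because these genes were the ones that appeared together, with Nanog beside them as the core factor that stayed near the detection limit. RefSeq windows on GRCm38.p6 of 250 bases before and 50 after the annotated start were found for 8 of the 10 factors. Sall4 and Myc had none. Each window runs 5′ to 3′ on the gene's strand. Capitals mark the GC box, written CCGCCC or GGGCGG, and in Zfp42 also the octamer ATGCAAAT or ATTTGCAT, the sequence to which POU factors bind.
Pou5f1: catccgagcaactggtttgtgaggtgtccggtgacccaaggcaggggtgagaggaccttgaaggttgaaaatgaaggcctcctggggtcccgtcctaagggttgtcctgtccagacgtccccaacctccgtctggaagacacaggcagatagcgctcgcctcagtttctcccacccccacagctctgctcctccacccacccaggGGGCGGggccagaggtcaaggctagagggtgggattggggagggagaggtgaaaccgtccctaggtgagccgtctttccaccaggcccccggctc
Zfp42: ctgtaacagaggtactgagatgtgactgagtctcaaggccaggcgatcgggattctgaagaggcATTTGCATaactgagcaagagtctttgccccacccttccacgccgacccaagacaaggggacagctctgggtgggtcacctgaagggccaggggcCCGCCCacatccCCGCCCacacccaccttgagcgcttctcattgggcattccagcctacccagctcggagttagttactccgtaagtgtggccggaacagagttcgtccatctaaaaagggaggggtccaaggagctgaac
Utf1: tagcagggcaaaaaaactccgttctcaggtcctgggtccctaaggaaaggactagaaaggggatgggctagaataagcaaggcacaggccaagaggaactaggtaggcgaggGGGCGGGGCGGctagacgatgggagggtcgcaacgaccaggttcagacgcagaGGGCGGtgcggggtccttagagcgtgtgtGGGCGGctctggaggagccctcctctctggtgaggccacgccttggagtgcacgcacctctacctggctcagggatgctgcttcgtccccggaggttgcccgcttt
Tdgf1: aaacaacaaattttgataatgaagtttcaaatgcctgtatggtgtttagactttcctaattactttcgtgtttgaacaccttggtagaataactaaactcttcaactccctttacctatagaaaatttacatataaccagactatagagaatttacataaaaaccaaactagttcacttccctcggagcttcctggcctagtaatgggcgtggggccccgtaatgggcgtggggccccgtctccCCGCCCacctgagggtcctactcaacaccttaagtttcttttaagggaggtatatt
Nanog: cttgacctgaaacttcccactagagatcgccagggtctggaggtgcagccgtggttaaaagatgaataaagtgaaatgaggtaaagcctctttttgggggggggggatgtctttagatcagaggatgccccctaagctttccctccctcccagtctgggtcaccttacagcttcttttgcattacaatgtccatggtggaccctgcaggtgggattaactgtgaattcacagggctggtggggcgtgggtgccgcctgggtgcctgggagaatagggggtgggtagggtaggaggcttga
They lie at chr17:35505782-35506081 (plus strand) for Pou5f1, chr8:43306960-43307259 (minus) for Zfp42, chr7:139943606-139943905 (plus) for Utf1, chr9:110946109-110946408 (minus) for Tdgf1 and chr6:122707239-122707538 (plus) for Nanog, the upstream of the windows listed for Pou5f1 and for Nanog. The GC box was present in the 4 windows of late-cell factors printed here. It was absent from both windows of Nanog, from both windows of Esrrb, and from the second window of Pou5f1 (chr17:35508557-35508856). It is a common sequence, present in 35.7% of all 32851 RefSeq windows, and it also occurred in those of Klf4 and Sox2. The octamer was present in 1.74% of all windows and among the factors in that of Zfp42 alone. The SOX sequence CATTGTT or AACAATG, in 3.78% of all windows, occurred in that second window of Pou5f1, and the E-box CACGTG, in 7.15%, in that of Klf4. The sequence TCAAGGTCA or TGACCTTGA, to which ESRRB binds, occurred in 0.423% of all windows and in none of the factors' windows. For all of these sequences only exact matches were counted. Near matches, such as ttttgcat to the octamer and tacaatg to the SOX sequence in the Nanog window, were left out. CpG dinucleotides numbered 11, 11, 17 and 7 in the windows of Pou5f1, Zfp42, Utf1 and Tdgf1, 4 in that of Nanog, 40 in that of Klf4 and 27 in that of Sox2, against a median of 7 over all windows.

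Total counts ran from 20172874 to 40122999 per library, and 3 counts, the limit of detection used here, corresponded to 0.0841 to 0.142 CPM. The libraries of late cells were far apart. Mitochondrially encoded transcripts took 10.3% of the counts in late replicate 2 and 1.48% to 2.16% in the other 5 libraries. The summed level of 10 cardiomyocyte markers was 17.7 and 130 CPM in fibroblasts, 18.8 and 51.6 CPM in early cells, and 78.6 and 49968 CPM in late cells, so that late replicate 2 alone held cardiomyocyte transcripts in quantity. Fibroblast markers were present in every library, with 9 or 10 of 10 above the detection limit in both libraries of each group and summed levels from 2662 to 12399 CPM. Their levels still differed widely. S100a4 fell to 128 and 156 CPM in early cells and 109 and 68.0 CPM in late cells, against 1449 and 938 CPM in fibroblasts (edgeR adjusted p 0.0415 and 0.0379). Both calls were lost without either fibroblast library (0.196 to 0.237) and with the replicate block (0.0704 and 0.0671), that in early cells without either early library (0.150 and 0.0818), and that in late cells without late replicate 2 (0.0764). Early replicate 1 had 3.20 CPM of the matrix gene Dcn, 16.9 CPM of Col3a1 and no count of Lum, whereas early replicate 2 had 678, 3881 and 102 CPM. Macrophage markers summed to 302 and 1243 CPM in fibroblasts, 115 and 51.0 CPM in early cells, and 71.6 and 263 CPM in late cells. Cd14 alone made up 110 and 40.2 CPM of the sums in early cells and 67.0 and 72.8 CPM in late cells. In fibroblasts it stood at 20.2 and 35.3 CPM. In both comparisons with fibroblasts, 9 of the 10 markers were lower and Cd14 was higher. Adgre1 had 0 and 1 counts in early cells and 3 and 310 in late cells, against 469 and 2510 in fibroblasts.

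Differences were tested across all 16688 genes that passed a filter on low counts, with edgeR's quasi-likelihood test and Benjamini-Hochberg adjustment, and a gene was called at an adjusted p under 0.05. Of the 10 factors 6 passed the filter, namely Klf4, Myc and Sox2, and Pou5f1, Sall4 and Utf1, which passed through the late libraries alone. None of these 6 was called by edgeR in any comparison. The share of all tested genes that was called came to 1.53% for early cells against fibroblasts, 1.42% for late cells against fibroblasts, and 0% for late against early cells. At an unadjusted p under 0.05, edgeR counted 1, 4 and 3 of the 6 tested factors in these comparisons. It counted 4976, 5426 and 1709 of all 16688 tested genes. DESeq2 called 1 of the 9, 5 of the 7 and 4 of the 7 factors to which it gave an adjusted p in these comparisons, where it called 22.1%, 26.7% and 6.44% of all genes that had one. The biological coefficient of variation was 48.6% with 3 residual degrees of freedom, which sets how large a difference could be called. The 2 comparisons with fibroblasts share the fibroblast libraries.

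Late cells held transcripts of Pou5f1, the POU-domain factor without which the embryo forms no pluripotent cells. Its counts were 0 and 0 in fibroblasts, 0 and 0 in early cells, and 75 and 35 in late cells. Both late libraries were above all others, at 3.12 and 0.981 CPM (mean 2.05 ± 1.51, SD, n = 2). This was at least 39.2-fold higher than in fibroblasts and at least 26.8-fold higher than in early cells, bounds that set 3 counts over a group without any. The edgeR test gave an adjusted p of 0.0768 for late cells against fibroblasts and 0.377 for late against early cells. The gene lies on chromosome 17 (GRCm38, 35506018 to 35510772, plus strand), and an annotated antisense transcript that shares 317 exonic bases with it had no counts. In RNA from bulk cells, a small number of cells with much Pou5f1 and many cells with little cannot be told apart.

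Sall4, a zinc finger factor of embryonic stem cells that is also needed in limb and heart development, was the most abundant of the late-cell factors in CPM. The gene lies on chromosome 2 (168748332 to 168767943, minus strand). It had 1 and 2 counts in fibroblasts, 0 and 0 in early cells, and 168 and 96 in late cells. The late libraries held 6.99 and 2.69 CPM (mean 4.84 ± 3.04, SD, n = 2), above all the other libraries. Late cells had 94.2 times the level of fibroblasts (95% counting interval 31.9 to 460, from 3 counts in fibroblasts) and at least 64.3 times that of early cells. The edgeR adjusted p was 0.0594 against fibroblasts and 0.289 against early cells. The predicted gene Gm14261 shares 526 exonic bases with Sall4 on the opposite strand and had 1 and 97 counts in late replicates 1 and 2 and none elsewhere. The sources used here do not give the strand setting of the counting, so reads of the shared part cannot be told apart in late replicate 2.

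Utf1, which encodes a chromatin-bound protein of embryonic stem cells and lies on chromosome 7 (139943789 to 139945112, plus strand), had 0 and 1 counts in fibroblasts, 0 and 1 in early cells, and 70 and 27 in late cells. Its late level was 2.91 and 0.757 CPM (mean 1.83 ± 1.52, SD, n = 2), with no overlap with the other groups. The ratio of late cells to fibroblasts was 104 (18.2 to 4142) and that of late to early cells 70.9 (12.4 to 2830), each resting on 1 count. With edgeR the adjusted p was 0.0671 and 0.377.

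Zfp42, a zinc finger protein used as a marker of naive embryonic stem cells (chromosome 8, 43295063 to 43306980, minus strand), had no count in fibroblasts or early cells and 23 and 8 counts in late cells (0.957 and 0.224 CPM). That put late cells at least 11.1-fold above fibroblasts and at least 7.56-fold above early cells. Tdgf1, which encodes the Nodal co-receptor CRIPTO (chromosome 9, 110939603 to 110946158, minus strand), had 0 and 0 counts in fibroblasts, 0 and 1 in early cells, and 22 and 7 in late cells, or 0.915 and 0.196 CPM. Late cells were at least 10.3-fold above fibroblasts and at 21.2 times the level of early cells (3.52 to 866, from 1 count). Neither gene passed the filter on low counts, so neither had a test. A processed pseudogene of Tdgf1 had 1 count in early replicate 2 and 1 in late replicate 2.

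When the filter on low counts was dropped, edgeR called 7.31% of all 31952 genes with a count in early cells against fibroblasts, 7.81% in late cells against fibroblasts and 0.864% in late against early cells. Among them were all 5 of these factors as higher in late cells than in fibroblasts, with adjusted p of 0.0012 for Pou5f1, 0.000859 for Sall4, 0.00398 for Utf1, 0.0198 for Zfp42 and 0.0219 for Tdgf1. Against early cells it then called Pou5f1 (0.00996), Sall4 (0.00126) and Utf1 (0.0302). DESeq2 also called these 3 in both comparisons. As the 5 are grouped here for having almost no counts outside late cells, these calls restate that grouping and are no separate support for it. Over the 12 alternatives the adjusted p against fibroblasts ran from 0.0012 to 0.351 for Pou5f1, from 4.35e-06 to 0.344 for Sall4 and from 0.00337 to 0.348 for Utf1, always with the late cells higher.

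A pattern of at most 3 counts over the fibroblast and early libraries together and more than 3 in each late library was shared by 235 of the 31952 genes with any count, or 0.735%, a rule set after the values were seen. Of the 10 factors, 5 had it, and those 5 were singled out because of it. Together they had 358 counts in late replicate 1 and 173 in late replicate 2, against 6 in the other 4 libraries.

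All 5 of these factors were higher in late replicate 1 than in late replicate 2. Replicate 1 over replicate 2 was 3.18 for Pou5f1 (2.10 to 4.90), 4.27 for Zfp42 (1.84 to 11), 2.60 for Sall4 (2.01 to 3.37), 3.85 for Utf1 (2.44 to 6.24) and 4.66 for Tdgf1 (1.92 to 12.9). All 5 intervals, which cover counting error only, share the range from 2.44 to 3.37, and those of Zfp42 and Tdgf1 are wide. Differences between the 5 ratios were not tested. Over the 235 genes of the same pattern the median of this ratio was 1.48, with quartiles of 0.706 and 2.94, and 64.7% were higher in replicate 1. Over the 17185 genes above the detection limit in both late libraries the median was 1.04. Late replicate 1, with the higher levels of these factors, was the library with 78.6 CPM of cardiomyocyte markers, and replicate 2 the library with 49968 CPM. Whether these move together was not tested, as there are only 2 late libraries.

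**Figure D2:**
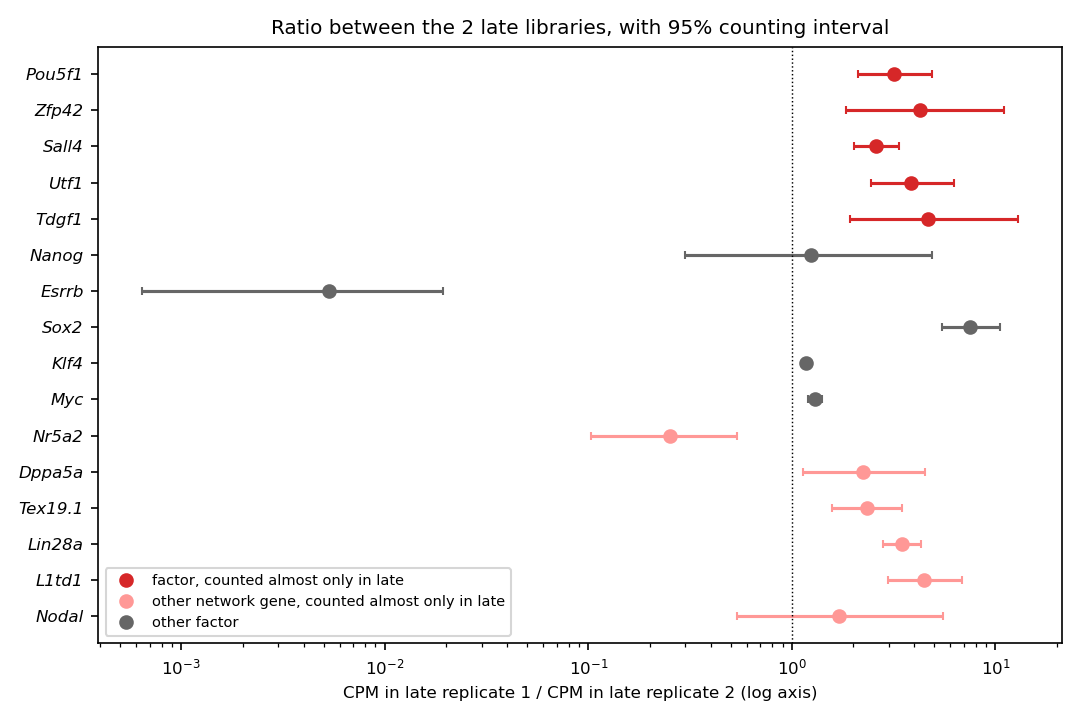
Ratio of the CPM in late replicate 1 to that in late replicate 2 (log axis) for each factor and for 6 other network genes counted almost only in late cells, with 95% counting intervals and a dotted line at equal levels. Pou5f1, Zfp42, Sall4, Utf1 and Tdgf1 lie between 2.60 and 4.66, Klf4 and Myc lie at 1.17 and 1.30, and Esrrb lies far to the left at 0.00531.

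Nanog, the homeodomain factor at the centre of the circuit, did not share this pattern. The gene lies on chromosome 6 (122707489 to 122714633, plus strand). It had 2 and 10 counts in fibroblasts, 3 and 2 in early cells, and 5 and 6 in late cells. Its levels of 0.208 and 0.168 CPM in late cells lay between the 0.067 and 0.294 CPM of the fibroblast libraries. The ratio of late cells to fibroblasts was 0.981, with a counting interval from 0.392 to 2.43, and that of late to early cells 1.61 (0.515 to 5.91). A rise of Nanog of the size seen for Pou5f1, at least 39.2-fold, lies outside the first interval. That interval covers counting error only, and the fibroblast libraries themselves stood at 0.067 and 0.294 CPM. It therefore does not set the smallest change that could be detected. The pseudogenes Nanog-ps1 and Nanog-ps2 had no counts.

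Esrrb, an orphan nuclear receptor of embryonic stem cells and trophoblast, was counted in quantity in late replicate 2 alone. The gene lies on chromosome 12 (86361117 to 86521628, plus strand). Its counts were 9 and 6 in fibroblasts, 5 and 3 in early cells, and 2 and 559 in late cells, or 0.0832 and 15.7 CPM in late replicates 1 and 2. The ratio of late replicate 1 to replicate 2 was 0.00531 (0.000642 to 0.0193), the opposite of the other factors that appeared in late cells. The gene did not pass the filter and had no test, and a mean over late cells would stand for neither library. DESeq2 called it higher in late cells, with an adjusted p of 0.0182 against fibroblasts and 0.0360 against early cells, and so did edgeR without late replicate 1, at 0.0325 and 0.0327, where the remaining library stands for the group. The related receptors Esrra and Esrrg, which act on mitochondrial genes in heart muscle, were also highest there. Esrrg had 12 and 894 counts in late cells against 7 and 29 in fibroblasts, and Esrra had 971 and 5970 counts against 1967 and 2233. The cardiomyocyte markers stood at 49968 CPM in that library and at 17.7 to 130 CPM in the other 5, and endothelial markers at 852 CPM there and 5.43 to 28.0 CPM in the other 5. Macrophage markers were at 263 CPM in that library and 71.6 CPM in late replicate 1, of which Cd14 alone made up 72.8 and 67.0 CPM. The part of any of these cell types in the level of Esrrb was not tested.

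Sox2, which pairs with POU5F1 in embryonic stem cells and also acts in neural progenitors and in cells of the hair follicle, was highest in fibroblasts. The gene lies on chromosome 3 (34650405 to 34652461, plus strand). Its counts were 2155 and 880 in fibroblasts, 58 and 53 in early cells, and 232 and 46 in late cells. The levels were 2.58 and 2.5 CPM in early cells and 9.65 and 1.29 CPM in late cells, against 72.2 and 25.8 CPM in fibroblasts, with no overlap of either group with fibroblasts. The log2 fold change was -4.27 ± 1.10 (SE) in early cells and -3.17 ± 1.04 in late cells relative to fibroblasts. Neither passed the test, with edgeR adjusted p of 0.0839 and 0.115. The lower level in early cells was called with DESeq2 (0.000288), with the compared groups alone in the fit (0.0397), and without late replicate 1 (0.0494) or late replicate 2 (0.0462). The lower level in late cells was called with DESeq2 (0.00856) and without late replicate 1 (0.04996). Over all 12 alternatives the adjusted p ran up to 0.327 for early and 0.407 for late cells, with the sign unchanged.

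The overlapping long noncoding gene Sox2ot, which shares no exonic base with Sox2, had 33 and 6 counts in fibroblasts, 0 and 1 in early cells, and 1 and 0 in late cells. Markers of Schwann and neural crest cells, which can carry Sox2, were read beside it. Of 8 such markers 3 were above the detection limit in both fibroblast libraries, 3 in both early and 5 in both late libraries. Their summed level was 5.2 and 5.62 CPM in early cells and 8.28 and 23.1 CPM in late cells, against 2.08 and 1.59 CPM in fibroblasts, mostly from Erbb3 and Foxd3 in early cells. Of single markers, Sox10 had no count in early cells, against 2 and 0 in fibroblasts, and Cdh19, Fabp7 and Ngfr had 1, 4 and 1 counts over both early libraries, against 7, 13 and 2 over both fibroblast ones. The part of such cells in the level of Sox2 was not tested. Between late and early cells the log2 fold change of Sox2 was 1.10 ± 0.99, with an edgeR adjusted p of 0.764, and without late replicate 1 it was -1.09. The late libraries differed from each other 7.49-fold (5.44 to 10.5).

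Klf4, a zinc finger factor of embryonic stem cells that also acts in the skin barrier and in connective tissue, was the most abundant factor per kilobase in all 3 groups. It had 108 and 115 CPM in fibroblasts, 171 and 143 CPM in early cells, and 148 and 126 CPM in late cells. Every early and late library was above both fibroblast libraries, by small amounts. The log2 fold change was 0.50 ± 0.21 (SE) in early and 0.30 ± 0.21 in late cells relative to fibroblasts, with edgeR adjusted p of 0.185 and 0.358. Between late and early cells it was -0.20 ± 0.21 (adjusted p 0.803, edgeR). The gene lies on chromosome 4 (55527143 to 55532466, minus strand).

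Myc, the bHLH factor that drives ribosome production and cell growth (chromosome 15, 61985391 to 61990374, plus strand), was at 26.5 and 18.8 CPM in fibroblasts, 71.5 and 25.3 CPM in early cells, and 52.4 and 40.5 CPM in late cells. Both late libraries and early replicate 1 were clearly above fibroblasts, whereas early replicate 2, the partially reprogrammed library, was below the higher fibroblast library. The log2 fold change was 1.09 ± 0.53 (SE) in early cells and 1.03 ± 0.53 in late cells relative to fibroblasts, with edgeR adjusted p of 0.232 and 0.230. In early cells it was 0.16 without early replicate 1 and 1.70 without early replicate 2, so the size rests on replicate 1. It was -0.06 ± 0.52 between late and early cells (edgeR adjusted p 0.988), a value whose sign turned when early replicate 1 (0.86) or late replicate 2 (0.11) was left out. None of the 12 alternatives called Myc in any comparison.

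**Figure D3:**
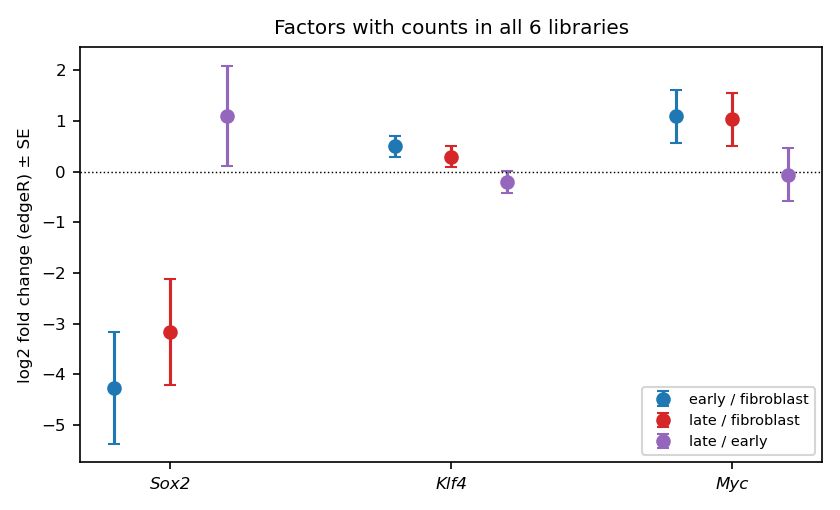
Log2 fold change (edgeR, with its standard error as bars) of the 3 factors above the detection limit in all 6 libraries. Values are for early cells over fibroblasts, late cells over fibroblasts and late over early cells. Sox2 lies at -4.27 and -3.17 relative to fibroblasts, Klf4 stays between -0.20 and 0.50, and Myc lies at 1.09 and 1.03 relative to fibroblasts.

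Genes that MYC is known to bind, for ribosome production and growth, were read beside it. Of a list of 24, 22 were higher and 2 lower in early cells than in fibroblasts, and none was called by edgeR. At an unadjusted p under 0.05 were 9 of the 24, against 4976 of all 16688 tested genes. The median log2 fold change of the list was 0.68, against 0.0038 over all tested genes. In late cells 22 were again higher than in fibroblasts, none was called, and the median was 0.59 against 0.11 over all genes. An unadjusted p under 0.05 was found for 6 of the 24, against 5426 of all 16688 genes. The summed level of the list was 9931 and 4829 CPM in early cells and 6971 and 6570 CPM in late cells, against 5202 and 5108 CPM in fibroblasts, so the sum in early replicate 2 was below that in fibroblasts. Without Ccnd2, which had 275 CPM in early replicate 2, the other 23 genes summed to 9485 and 4553 CPM in early cells, against 4237 and 4120 CPM in fibroblasts. In early replicate 2, 13 of the 24 genes were above both fibroblast libraries, against 22 in early replicate 1. The numbers were 22 and 19 in late replicates 1 and 2. The share of all tested genes above both fibroblast libraries is not given here, so these numbers have no background to be read against. Polr1b, a subunit of RNA polymerase I, had 57.1 and 24.3 CPM in early cells against 15.3 and 10.2 CPM in fibroblasts (log2 fold change 1.68 ± 0.47, edgeR adjusted p 0.0952). Nop56, a nucleolar protein, had 175 and 76.3 CPM in early cells against 46.9 and 42.0 CPM (1.5 ± 0.43, edgeR adjusted p 0.0995). The cell cycle gene Ccnd2 was on the other side, with 447 and 275 CPM in early cells against 965 and 988 CPM in fibroblasts (-1.44 ± 0.36, edgeR adjusted p 0.0804).

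Within the wider MYC and MAX network, none of 12 tested genes out of 13 was called by edgeR in any comparison. At an unadjusted p under 0.05 were 4, 4 and 1 of the 12, against 4976, 5426 and 1709 of all 16688 genes. Mycn, the paralogue used by many embryonic and progenitor cells, had 39 and 45 counts in fibroblasts, 1 and 7 in early cells, and 150 and 212 in late cells. Late cells thus had 6.24 and 5.94 CPM of Mycn against 0.0445 and 0.331 CPM in early cells (log2 fold change 5.0 ± 0.94, edgeR adjusted p 0.350). Mxd3, a partner of MAX found in dividing cells, had 16.9 and 2.55 CPM in early cells and 9.57 and 9.08 CPM in late cells, against 1.01 and 0.499 CPM in fibroblasts (adjusted p 0.0939 and 0.0906 with edgeR).

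Other genes of the pluripotency network were then taken from a list of 38 that excludes the 10 factors. Of these, 23 passed the filter. In late cells 18 of them were higher and 5 lower than in fibroblasts, and 1 was called by edgeR, with 17 at an unadjusted p under 0.05. The median log2 fold change was 4.31, or 4.29 with genes absent from fibroblasts set at their bound, against 0.11 over all tested genes. Genes counted only in late cells pass the filter through those libraries. The numbers higher and at a small p, and this median, are therefore partly set by the filter. They do not stand for all 38 and are no separate support for a rise. In early cells 13 were higher and 9 lower than in fibroblasts, none was called by edgeR, 9 had an unadjusted p under 0.05, and the median was 0.71 (1.0 with bounds) against 0.0038. Between late and early cells, under the same limit of the filter, 17 were higher and 6 lower, none was called, and 11 had an unadjusted p under 0.05. Of all 16688 genes, 5426 had such a p in late cells against fibroblasts. The number was 4976 in early cells against fibroblasts and 1709 in late against early cells. Above the detection limit in both libraries of a group were 13 of the 38 in fibroblasts, 14 in early cells and 22 in late cells.

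The called gene was Cdh1, which encodes E-cadherin, the adhesion molecule of embryonic stem cells and epithelia. It had 20.1 and 6.59 CPM in late cells against 0.0335 and 0.0294 CPM in fibroblasts, 1 count in each (ratio 384, counting interval 106 to 3174, edgeR adjusted p 0.0468). The call was lost without either fibroblast library (0.279 and 0.309), without late replicate 2 (0.0704) and with the replicate block (0.0663), and 8 of 12 alternatives kept it. Epcam, another adhesion molecule of both cell types, had 4.45 and 1.82 CPM in late cells against 0.067 and 0.0881 CPM in fibroblasts (5.25 ± 0.77, edgeR adjusted p 0.0508). Rif1, a replication and repair factor, had 70.8 and 37.7 CPM in early cells and 51.0 and 47.0 CPM in late cells, against 11.8 and 9.10 CPM in fibroblasts (edgeR adjusted p 0.0535 and 0.0564). Both Cdh1 and Epcam are shared with epithelia, and keratinocyte markers summed to 84.3 and 919 CPM in late cells, against 109 and 48.2 CPM in fibroblasts, with the basal keratin Krt14 at 0.458 and 0.308 CPM in late cells and at 0 in fibroblasts. Dsp, a desmosomal gene shared with heart muscle, made up 53.3 and 794 CPM of the late sums, and 5 of 10 markers were above the detection limit in both fibroblast libraries and 7 in both late ones. Their part in Cdh1 and Epcam was not tested.

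The remaining network genes described here were chosen after their values were seen. Lin28a, the RNA-binding protein that blocks let-7 maturation, had 1 and 0 counts in fibroblasts, 0 and 2 in early cells, and 299 and 128 in late cells. L1td1, an RNA-binding protein of embryonic stem cells, had 96 and 32 counts in late cells, Tex19.1, a germline and placental gene, 69 and 44, and Dppa5a, an RNA-binding protein of pluripotent cells, 24 and 16. Each of these 3 had at most 3 counts over the other 4 libraries. Trim71, a target of let-7, had 288 and 112 counts in late cells against 2 and 0 in fibroblasts. All 5 were higher in late replicate 1, in the same direction as Pou5f1 and the factors that appeared with it. The nuclear receptor Nr5a2 ran the other way, with 8 and 47 counts in late cells and 1 in the other 4 libraries together.

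Several network genes with a large difference were already high in early cells. Tfcp2l1, a factor of naive embryonic stem cells and of kidney, had 17.5 and 2.46 CPM in early cells and 6.66 and 1.74 CPM in late cells, against 0.101 and 0.176 CPM in fibroblasts (edgeR adjusted p 0.0759 and 0.0878). Otx2, a factor of epiblast and brain, had 22 and 26 counts in early cells and 38 and 10 in late cells, against 1 and 1 in fibroblasts. Other genes of the ground state stayed near 0 in all libraries. Nr0b1, Prdm14, Dppa3, Gdf3, Eras and Zscan4c had at most 3 counts in any library, Fgf4 had 3 and 3 in late cells, and Dppa2 and Dppa4 had at most 7.

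**Figure D4:**
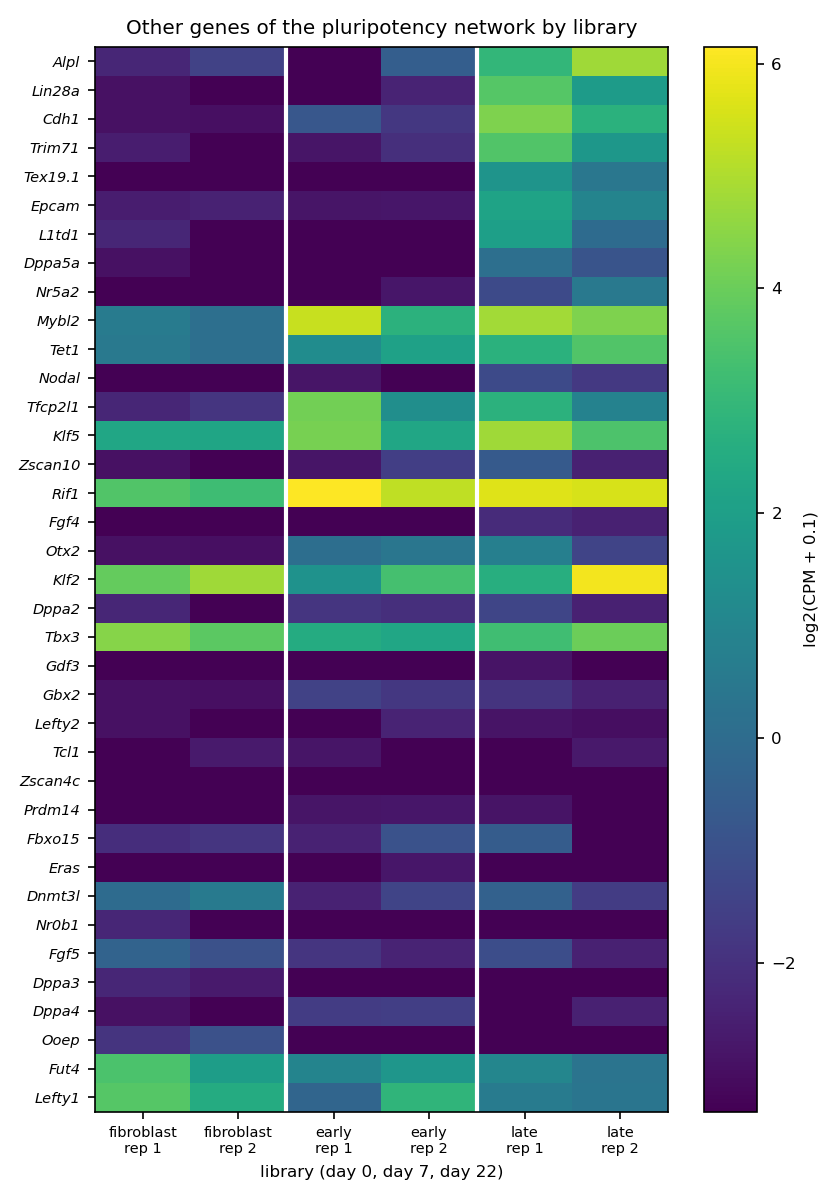
Heat map of log2(CPM + 0.1) of 37 of the 38 other network genes (rows, ordered by the mean of the late libraries minus that of the other 4) in the 6 libraries (columns, day 0, day 7 and day 22). Lin28a, Cdh1, Trim71, Tex19.1, Epcam, L1td1 and Dppa5a are brightest in the late columns, Tfcp2l1 and Otx2 brighten from the early columns on, and Fut4 is brightest in fibroblasts.

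TDGF1 is the co-receptor through which Nodal signals, and it was set beside the 16 listed genes of that pathway. The ligand Nodal had 0 and 0 counts in fibroblasts, 1 and 0 in early cells, and 8 and 7 in late cells. The nuclear partner Foxh1 had 0 and 1 counts in fibroblasts, 0 and 1 in early cells, and 26 and 14 in late cells. The related co-receptor Cfc1 had 3 and 0 counts in late cells and the ligand Gdf3 had 1 and 0. Lefty1, an inhibitor and target of Nodal, had 371 and 189 counts in fibroblasts, 17 and 153 in early cells, and 34 and 42 in late cells. Of the 8 pathway genes that passed the filter, none was called by edgeR in any comparison. An unadjusted p under 0.05 was found for 4, 3 and 1 of the 8, against 4976, 5426 and 1709 of all 16688 genes. The type I receptor Acvr1b had 64.3 and 99.7 CPM in early cells and 75.3 and 47.2 CPM in late cells, against 24.4 and 17.7 CPM in fibroblasts (edgeR adjusted p 0.0642 and 0.0768). The type II receptor Acvr2a had 15 and 16.8 CPM in early cells and 19.6 and 20.1 CPM in late cells, against 35.4 and 50.9 CPM in fibroblasts (edgeR adjusted p 0.0621 and 0.0764).

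Germ cells also carry Pou5f1, Sall4 and Utf1, and their markers were read beside these genes. Dazl had 10 and 4 counts in fibroblasts, 0 and 0 in early cells, and 0 and 3 in late cells. Ddx4 had 0.291 and 0.224 CPM in late cells and 0.0889 and 0.0472 CPM in early cells, against 5.73 and 15 CPM in fibroblasts, and fell in early cells (ratio 0.00644, counting interval 0.00132 to 0.0189, from 3 counts in early cells, edgeR adjusted p 0.0411). That call was lost without either fibroblast library (0.198 and 0.234), without either early library (0.131 and 0.0788) and with the replicate block (0.0731). Kit, which is shared with progenitors and melanocytes, had 9.36 and 10.8 CPM in late cells against 0.0335 and 0 CPM in fibroblasts (edgeR adjusted p 0.0523). Piwil2 had 0 and 4 counts in fibroblasts, 3 and 12 in early cells, and 7 and 27 in late cells. Sycp3 had 2 and 4, 1 and 18, and 4 and 24. Of the 5 markers that passed the filter, 4 were higher and 1, Ddx4, lower in both comparisons with fibroblasts. Over all 16688 genes, 8375 were higher in early and 9026 in late cells. Genes counted mainly in late cells pass the filter through those libraries. The 8 germ cell markers summed to 2.71 and 3.73 CPM in early cells and 11 and 14.7 CPM in late cells, against 6.94 and 16.7 CPM in fibroblasts.

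Paralogues of the factors were read by family. Among 18 other SOX genes, 11 passed the filter and edgeR called 1, in early cells against fibroblasts. At an unadjusted p under 0.05 were 5, 6 and 5 of the 11 in the 3 comparisons. Here and for the KLF and POU families, the numbers out of all 16688 genes were 4976, 5426 and 1709. Sox9, a factor of cartilage and of progenitors, rose to 98.2 and 116 CPM in early cells, against 15.1 and 8.40 CPM in fibroblasts (log2 fold change 3.19 ± 0.43, edgeR adjusted p 0.0456), and stood at 103 and 61.2 CPM in late cells (2.81 ± 0.42, edgeR adjusted p 0.0522). The call in early cells was lost without either fibroblast library (0.218 and 0.256), without either early library (0.128 and 0.0736) and with the replicate block (0.0694). Sox11, a factor of neural and mesenchymal progenitors, had 26.6 and 7.77 CPM in late cells and 0.0889 and 0 CPM in early cells, against 2.25 and 1.17 CPM in fibroblasts. Sox3, which belongs to the same subgroup as Sox2, had 20 and 10 counts in late cells and at most 1 in each of the other libraries. Of 16 other KLF genes 13 were tested and none was called by edgeR, with 3, 3 and 1 at an unadjusted p under 0.05. Klf10 had 52.0 and 32.9 CPM in early cells against 10.4 and 12.6 CPM in fibroblasts (edgeR adjusted p 0.0556), and Klf6 had 121 and 84.6 CPM against 245 and 286 CPM (edgeR adjusted p 0.0664). Of 14 other POU genes 9 were tested and none was called by edgeR, with 5, 5 and 2 at an unadjusted p under 0.05. The neural factor Pou4f1 had 430 and 384 counts in early cells and 262 and 74 in late cells, against 32 and 22 in fibroblasts (edgeR adjusted p 0.0695 and 0.0997). Pou3f4 had no count in early cells and 8 and 5 in late cells, against 96 and 55 in fibroblasts. Of the 3 other SALL genes, Sall1 and Sall2 were tested and neither was called by edgeR, with Sall1 at 14.2 and 8.72 CPM in late cells against 4.39 and 3.23 CPM in fibroblasts (edgeR adjusted p 0.120).

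The genes whose log2 CPM was most like that of each factor over the 6 libraries are given as a description, since the groups themselves carry most of the likeness. For Sall4 they were Peg3 (Pearson r = 0.982), Peg10 (0.977) and Kif13b (0.977). Peg3 and Peg10, both imprinted, stood at 635 and 210 CPM and at 698 and 202 CPM in late cells and at 3.59 to 21.7 CPM in the other libraries. Peg3 was also the nearest to Pou5f1 (0.976), before Dtd1 (0.969) and Gse1 (0.969). Utf1 was nearest to Dtd1 (0.992), Csrnp2 (0.985) and Zbtb10 (0.970), genes that varied by far less, as Dtd1 ran only from 9.52 to 11.9 CPM. Sox2 was nearest to Ass1 (0.996), an enzyme of arginine synthesis with 17.6 and 18.0 CPM in early cells against 363 and 194 CPM in fibroblasts, then to Atxn10 (0.989) and Eno1b (0.986). Klf4 was nearest to Pcbp1 (0.996), Nf1 (0.996) and Pprc1 (0.996). Myc was nearest to Rplp2 (0.999), a ribosomal protein, to Fbl (0.997), the methylase of ribosomal RNA, and to Mcph1 (0.997). Among the factors, Pou5f1 correlated with Sall4 at 0.992 and with Utf1 at 0.990, and Sall4 with Utf1 at 0.978. These genes were grouped for having almost no counts outside late cells, so these correlations restate that grouping. The other pairs of tested factors ran from -0.666 (Sox2 with Klf4) to 0.781 (Klf4 with Myc).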

How the data were processed

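Polyadenylated RNA of 6 libraries was measured, and the authors deposited a table of read counts by Ensembl gene without normalization. The submitters' processing notes name Trimmomatic 0.36, STAR 2.5.2b, featureCounts, Subread 1.5.2 and the build GRCm38. The sources used here do not give the annotation release, the strand setting or the handling of multimapping reads. The fibroblast columns carry sample titles. The early and late columns were assigned by name alone, and if that reading were wrong, early and late values would change places. No label says that replicates are separate cultures or animals. The p-values therefore reflect the spread among 6 libraries only, which may be technical.

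Symbols and positions came from GENCODE M21, which matched 48970 of 49315 identifiers, and 31952 genes had a count. With edgeR 4.0.16 under R 4.3.3, the default filter kept 16688 genes, which were scaled by TMM and fitted by group over all 6 libraries with the quasi-likelihood test, after a check on simulated data. CPM use TMM-scaled library sizes, and log2 CPM has a prior count of 2. Intervals are exact 95% Poisson or conditional binomial ones, which like the detection limit of 3 counts cover counting error only. DESeq2 1.42.0, other normalization, no filter, a replicate block, fewer groups and each library left out were alternatives. Lists were read by counts and medians. The values of 1 network gene are not reported here.

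Beside all 10 factors, the genes named were the 3 of each list with the smallest p, any called gene of a list with 5 or fewer, and, for each tested factor, the 3 genes with the highest Pearson correlation among those with a mean log2 CPM of at least 3. Others were picked after their values were seen. The factors and lists were chosen with earlier results of these data known.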

Additional observations from a re-analysis of the deposited data

How the results depend on the processing

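The count of factors called between early cells and fibroblasts was 0, and 1 with DESeq2 or with only the compared groups in the fit (Sox2, lower). Between late cells and fibroblasts it was 0, against 5 with DESeq2, 5 without a filter and 1 with only the compared groups. Between late and early cells it was 0, against 4 with DESeq2 and 3 without a filter. Leaving out a library gave 0 to 1, 0 to 2 and 0 to 1 factors in these comparisons, where the calls came without late replicate 1 (Sox2 and Esrrb) or late replicate 2 (Sox2), and a group left with 1 library is assumed to vary like the others. Over all genes, 255, 237 and 0 were called by edgeR (4976, 5426 and 1709 at an unadjusted p under 0.05), against 4046, 4722 and 1100 by DESeq2 and 2337, 2495 and 276 without a filter. With only the compared groups they were 1469 and 1016 in the comparisons with fibroblasts. Leaving out a library gave 0 to 823, 0 to 1058 and 0 to 601, with 0 in both comparisons with fibroblasts without either fibroblast library, 6 in early cells without early replicate 1, and 8 in late cells without late replicate 2. The replicate block gave 26 and 9 in the comparisons with fibroblasts, 0 between late and early cells, and no called factor. Libraries share only a number, and deviations of the same number correlated at 0.121, 0.238 and 0.0859. Of the log2 fold changes, that of Sox2 between late and early cells ran from -1.09 (without late replicate 1) to 1.92 (without late replicate 2), and that of Myc from -0.68 (without early replicate 2) to 0.86 (without early replicate 1), with 0.11 without late replicate 2 and 0.086 with the replicate block. In all, 157 of these values kept sign and side of the threshold, 19 passed it and 4 turned. DESeq2's normalization in edgeR and leaving out mitochondrial genes changed no call of a factor. The cause of these shifts was not tested. Cdh1 and S100a4 kept their calls in late cells under 8 of 12 alternatives, and Sox9, Ddx4 and S100a4 theirs in early cells under 7 of 12, each with the sign unchanged, a check added after seeing the data. Depth limits the folds of the factors absent from fibroblasts, whose bounds rest on 3 counts.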

Other observations

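Genes of 3 embryonic and extraembryonic lineages were read beside the factors, from lists written after the values were seen and so with no test. Of 18 genes of trophoblast and placenta, 14 were above the detection limit in both late libraries, against 1 in both early and 2 in both fibroblast libraries, and 10 had at most 3 counts over the fibroblast and early libraries together. Their summed level was 1.21 and 0.646 CPM in fibroblasts, 15.4 and 0.425 CPM in early cells, and 104 and 40 CPM in late cells. The X-linked homeobox genes Rhox6 and Rhox9 had 494 and 198 counts and 474 and 214 counts in late cells, against 0 and at most 3 in each of the other libraries. The placental prolactin relative Prl2a1 had 53 and 23 counts in late cells and none elsewhere. Cdx2, a trophoblast and hindgut factor, was already at 315 and 4 counts in early cells and reached 335 and 464 in late cells, against 1 and 2 in fibroblasts. Gcm1 and Prl3d1, of mature placental cell types, had no counts in late cells, and Prl3b1 had 0 and 1. Other placental genes of the list were counted in late cells alone. Tpbpa had 21 and 12 counts there, Ctsj 16 and 4, Ctsr 9 and 8, and Psg22 5 and 5.

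Of 13 genes of visceral and yolk sac endoderm, 12 were above the detection limit in both late libraries, against 4 in both libraries of early cells and of fibroblasts. Afp had 325 and 155 counts and Ttr 91 and 28 counts in late cells, against 2 and 8 and against 1 and 1 in fibroblasts. The summed level of the 13 genes was 10.8 and 16.2 CPM in fibroblasts, 63.3 and 23.2 CPM in early cells, and 86.6 and 56.0 CPM in late cells. Its genes did not share 1 pattern. Cubn was highest in fibroblasts, with 6.95 and 3.59 CPM in late cells against 9.35 and 15.1 CPM, and Apob was highest in early cells (4.49 and 7.42 CPM). Foxa2 was already at 55.9 and 11.3 CPM in early cells, and Sox17 stood at 1.66 and 11.2 CPM in late cells. Of 12 genes of the primitive streak, 9 were above the limit in both late libraries, against 1 in each other group. T (Brachyury) had 25 and 19 counts in late cells, Evx1 had 40 and 18 and Nkx1-2 had 46 and 17, and none of these had a count in the other 4 libraries. Eomes did not share this, with 25 and 6 counts in late cells against 25 and 108 in fibroblasts. Mesp1, an early cardiac mesoderm factor, had no counts in any library. Like Pou5f1, most of the genes named here, though not Sox17, were higher in CPM in late replicate 1 than in late replicate 2. Rhox6 stood at 20.6 and 5.55 CPM, T at 1.04 and 0.533 CPM and Afp at 13.5 and 4.35 CPM, while Cdx2 was level at 13.9 and 13.0 CPM. No adjustment or chance share is given, since the lists were written with these values in view.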
